A study of Mus musculus with 72 samples.

Results

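The genes described here are 10 that mesenchymal stromal cells and fibroblasts are known for, followed across cultures of macrophages. They were taken by symbol from the count tables: Col1a1, Col1a2, Col3a1, Col5a2, Sparc, Acta2, Bgn, Dcn, Lox and Postn. All 10 were found among the 49568 genes listed, and all 10 passed the filter on low counts that left 17903 genes. The study profiled RNA in bone marrow derived macrophages, phagocytes grown from marrow progenitors of male C57BL/6 mice aged 3-6 months. All mice carried Per2::Luc, a luciferase reporter joined to the Per2 clock gene, and all cultures were grown to confluence with M-CSF for 6 days. A serum shock set the clocks of the cultures in step, and 3 replicate time courses were then followed between 16 h and 62 h at steps of 2 h. Each course has 1 library at each of 24 times, 72 libraries in all. No unsynchronised culture and no culture of other cells was analysed here. The labels name a course by number and give no animal, dish or day for it, so the p-values speak of the spread among these libraries only, and that spread may be technical.

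The fibrillar collagens are secreted as triple helices that assemble outside the cell into fibrils. Collagen I is built from the chains of Col1a1 and Col1a2, collagen III from Col3a1, and collagen V, which starts and limits fibril growth, contains the chain of Col5a2. Bgn and Dcn encode biglycan and decorin, small leucine-rich proteoglycans that bind collagen, and Lox encodes lysyl oxidase, which cross-links it. Sparc and Postn encode collagen-binding matricellular proteins, and Acta2 encodes smooth muscle α-actin, the contractile filament of smooth muscle and myofibroblasts. In marrow these genes are known from the stroma that adheres to plastic together with the cells that become macrophages.

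Libraries held 45309360 to 67839053 counts assigned to genes (median 55040063), so 1 CPM (a count scaled to library size, here with TMM factors) is about 55.0 counts at the median depth. Markers of the labelled cell type were abundant: 13 of 13 listed macrophage genes passed the filter, and their summed level ran from 19228 to 35162 CPM. Csf1r, the M-CSF receptor, was at 989 CPM or more in every library. Over genes outside every list, 5 libraries stood apart from the other courses at the same time: course 1 at 40 h and 56 h, course 2 at 22 h and 60 h, and course 3 at 60 h. Their summed level of the 10 genes was 30.7, 20.6, 72.7, 6.65 and 63.5 CPM in that order, which put 3 of them among the 5 lowest of all 72 libraries. Results are given with and without these 5 where leaving them out changed a call or moved a count by over 1.5 times.

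The summed level of the 10 genes was 6.65 CPM at its lowest (course 2, 60 h), 117 CPM at the median and 593 CPM at its highest (course 3, 22 h), an 89.2-fold range. By course it ran from 20.6 to 285 CPM in course 1 (median 107), from 6.65 to 461 CPM in course 2 (median 223) and from 21.1 to 593 CPM in course 3 (median 96.9). The ranges of the 3 courses overlapped, and course 2 was the highest of the 3 at 14 of 24 times. No gene of the 10 was at 0 in any library, though the lowest libraries rest on few counts, such as 2 counts of Postn in course 1 at 56 h and 7 of Acta2 in course 2 at 60 h. Fewer cells of a type and less RNA per cell cannot be told apart in such bulk libraries.

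**Figure D1:**
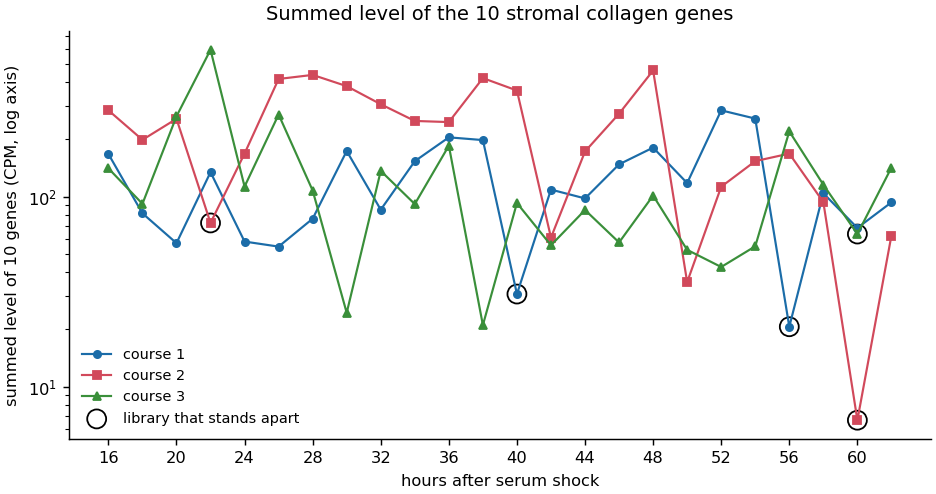
Summed level of the 10 genes (y axis, CPM on a log axis) against hours after serum shock (x axis) in course 1, course 2 and course 3, 1 point per library. Black circles mark the 5 libraries that stand apart. The level moved between 6.65 and 593 CPM, and the lines cross many times.

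Among the fibrillar collagen genes, Col1a2 had the highest CPM, from 1.83 CPM in the lowest library to 178 CPM in the highest, with a median of 43.7 CPM. Col1a1 ran from 0.313 to 86.6 CPM (median 16.3 CPM). Col3a1 ran from 0.142 to 62.3 CPM (median 7.71 CPM), and Col5a2 reached 38.6 CPM (median 8.61 CPM) with a lowest library of 24 counts. For all 4 the highest library was course 3 at 22 h. For 3 of the 4 the lowest library was course 2 at 60 h, and for Col3a1 it was course 1 at 56 h.

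The proteoglycan genes differed in level: Bgn ran from 0.938 to 48.4 CPM (median 8.21 CPM), while Dcn ran from 0.0385 to 3.42 CPM (median 0.702 CPM). Lox, the cross-linking enzyme, ran from 1.58 to 51.3 CPM (median 11.6 CPM) and was highest in course 2 at 26 h. Sparc ran from 0.876 to 61.9 CPM (median 11.2 CPM). Postn ran from 0.0354 to 9.03 CPM (median 1.72 CPM), and Acta2 from 0.146 to 70.3 CPM (median 11.7 CPM). For the other 9 genes the highest library was taken between 22 h and 28 h, while for Dcn it was course 3 at 56 h.

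**Figure D2:**
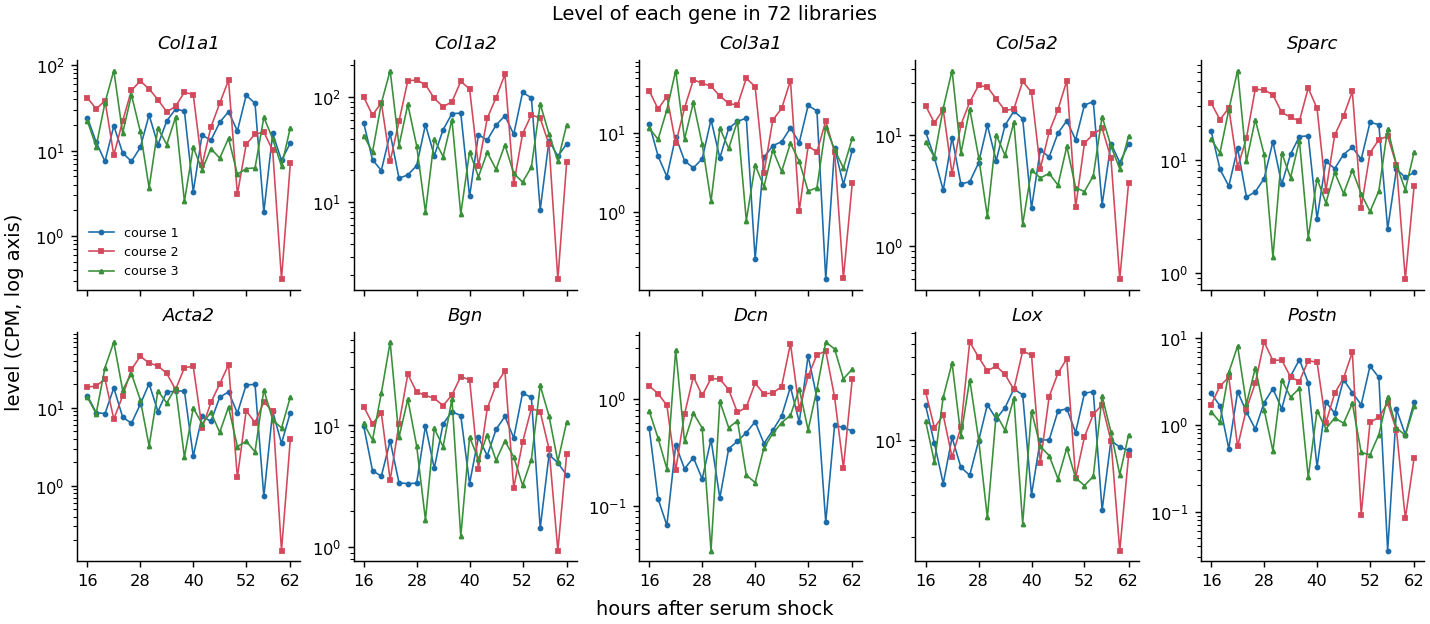
Level of each of the 10 genes (y axes, CPM on log axes that differ between panels) against hours after serum shock (x axis), with a line for each of the 3 courses and 1 point per library. The falls at 56 h in course 1 and at 60 h in course 2 appear in all 10 panels, and Dcn has its lowest value, 0.0385 CPM, in course 3 at 30 h.

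Per kilobase of exon the order of the genes was different. The length used is the union of annotated exons, which is 12426 bases for Col1a2, 6563 for Col1a1 and 2196 for Acta2. Lengths of the transcripts present were not measured, so the order rests on this choice. Acta2 was first with a median of 5.31 RPKM (CPM per kilobase), followed by Col1a2 at 3.52, Sparc at 2.97, Col1a1 at 2.48, Lox at 2.44, Bgn at 1.35, Col5a2 at 0.898, Col3a1 at 0.785, Postn at 0.198 and Dcn at 0.120 RPKM. Neighbours that did not separate were Col1a1 and Lox, with Col1a1 above Lox in 29 of 72 libraries on this scale, and Col5a2 and Col3a1, with Col5a2 above in 38. Acta2 stood above Col1a2 in 62 of 72 libraries and Lox above Bgn in 71. Postn stood above Dcn in 52 of 72, in 21, 15 and 16 of 24 libraries by course.

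The genes lie apart in the genome except for one pair. On GRCm38 (GENCODE M21), Col3a1 spans chromosome 1 from 45311538 to 45349706 on the plus strand, and Col5a2 spans 45374321 to 45503282 on the minus strand close beside it. Col1a1 lies on chromosome 11 from 94936224 to 94953042, Col1a2 on chromosome 6 from 4504814 to 4541544, and Acta2 on chromosome 19 from 34241090 to 34255590. Exons of Col3a1 overlap those of Gm47302 by 141 bases on the same strand, and exons of Lox overlap those of AC161119.1 by 30 bases on the other strand. The other 8 genes have no exon overlap with another gene. Whether the counting used strand is not given in these sources.

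Promoter sequence from RefSeq (GRCm38.p6) was at hand for 6 of the 10 genes in 7 windows, and the 250 bases before each start were searched on both strands for 5 motifs. Over 32851 windows of this length, the TATA box, written TATAAA, was in 12.4%, and the CCAAT box in 33.8%. The GC box, written GGGCGG, was in 32.7%, the AP-1 motif, written TGACTCA, in 4.46%, and a CArG box in 1.47%. The 4 windows with a match are shown, since these genes moved together in the libraries as described further on. They are Col3a1 (chr1:45311288-45311537), Postn at the nearer of its 2 windows (chr3:54360857-54361106), Col1a2 (chr6:4505368-4505617) and Bgn (chrX:73483351-73483600), all on the plus strand, read 5′ to 3′ with matches in capitals on the strand shown.
Col3a1: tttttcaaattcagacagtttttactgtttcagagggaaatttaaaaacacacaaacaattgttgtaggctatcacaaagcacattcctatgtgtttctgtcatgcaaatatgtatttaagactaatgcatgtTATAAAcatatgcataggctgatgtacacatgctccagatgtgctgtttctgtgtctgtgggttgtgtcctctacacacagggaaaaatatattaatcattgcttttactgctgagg
Postn: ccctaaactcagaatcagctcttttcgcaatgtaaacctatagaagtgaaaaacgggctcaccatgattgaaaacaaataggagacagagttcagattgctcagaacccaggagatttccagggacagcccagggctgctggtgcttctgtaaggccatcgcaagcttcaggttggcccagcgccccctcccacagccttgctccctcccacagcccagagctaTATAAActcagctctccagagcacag
Col1a2: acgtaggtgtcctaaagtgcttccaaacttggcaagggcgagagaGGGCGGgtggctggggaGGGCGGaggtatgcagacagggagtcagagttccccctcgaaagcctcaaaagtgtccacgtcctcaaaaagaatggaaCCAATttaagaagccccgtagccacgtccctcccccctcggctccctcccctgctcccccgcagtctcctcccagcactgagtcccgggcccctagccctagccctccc
Bgn: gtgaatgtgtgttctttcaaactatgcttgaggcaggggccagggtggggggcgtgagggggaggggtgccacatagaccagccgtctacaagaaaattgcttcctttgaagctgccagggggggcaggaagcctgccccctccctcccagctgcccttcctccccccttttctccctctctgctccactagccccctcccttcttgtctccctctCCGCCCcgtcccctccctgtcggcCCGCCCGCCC
Counted from the start, with -1 as the last base before it, TATAAA begins at -117 in Col3a1 and at -26 in Postn. Col1a2 holds CCAAT at -109 and GGGCGG at -205 and -188. Bgn holds GGGCGG on the other strand at -34, -10 and -6, and the last 2 of these overlap. No motif was shared by all 4 windows. A match is a description of these letters and not a shown binding site.

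The spread between libraries was the main feature of these genes. The biological coefficient of variation that edgeR estimated after time point and course effects was 0.611 for Lox to 0.895 for Col3a1, against a median of 0.136 over all genes tested. This placed the 10 genes between the 95.1 and 99.7 percentiles. After time point and course means were removed, 52.0% of the variance of log2 CPM was left for Dcn and 58.1% or more for the other 9 genes, against a median of 32.2% over all genes. Course means accounted for 1.66% (Postn) to 22.6% (Dcn).

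Neighbouring times in 1 course often differed by a large step. Of 69 steps of 2 h within courses, the summed level changed by over 2-fold in 31, and the median size of a step was 0.85 on the log2 scale. The largest was a 14.1-fold fall to 60 h in course 2. The summed level of 13 macrophage genes had a median step of 0.09 and passed 2-fold in 0 of 69 steps. Lyz2 alone, at 11592 to 19143 CPM, made up a large part of that sum, and steps of single macrophage genes were not computed. Col3a1 passed 2-fold in 41 steps and Lox in 22, the most and the fewest of the 10.

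The genes made these steps together. All 10 moved in the same direction in 43 of 69 steps, and the 9 other than Dcn did so in 53. Col1a2 moved with Col1a1 in 65 steps, Acta2 with Col1a1 in 62 and Dcn with Col1a1 in 51. At 36 h the 3 courses nearly met, with a summed level of 205, 247 and 185 CPM in courses 1, 2 and 3. At 38 h, 2 h later, they held 198, 421 and 21.1 CPM. Col1a1 was at 30.6, 33.0 and 24.6 CPM at 36 h and at 29.0, 48.1 and 2.54 CPM at 38 h, so the 38 h library of course 3 was far lower than its 36 h library, while that of course 2 was higher. In that library Col3a1 was at 0.783 CPM, against 15.5 and 49.7 CPM in courses 1 and 2.

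Between pairs of genes the correlation of log2 CPM (prior count 2) over 72 libraries is given as a description with no test, since libraries of a course are successive samples and share depth and scaling. In the 36 pairs without Dcn, Pearson's r was 0.851 to 0.985 with a median of 0.94, and Spearman's rho had a median of 0.93. In the 9 pairs with Dcn, r was 0.40 to 0.67 (median 0.52). Leaving out the 2 libraries farthest from the median left medians of 0.93 and 0.46. Within course 1, 2 and 3 alone the median r of pairs without Dcn was 0.93, 0.96 and 0.94, and of pairs with Dcn 0.62, 0.54 and 0.46.

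Removing time point and course means raised the correlations rather than lowering them. Pairs without Dcn then had r of 0.915 to 0.994 (median 0.96) and pairs with Dcn 0.69 to 0.81 (median 0.76). The closest pair was Col1a1 and Col1a2, the chains of collagen I, at 0.99. Against the mean of the other 9 genes, Col1a1 and Col1a2 each had r of 0.99, Postn 0.95 and Dcn 0.77.

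**Figure D3:**
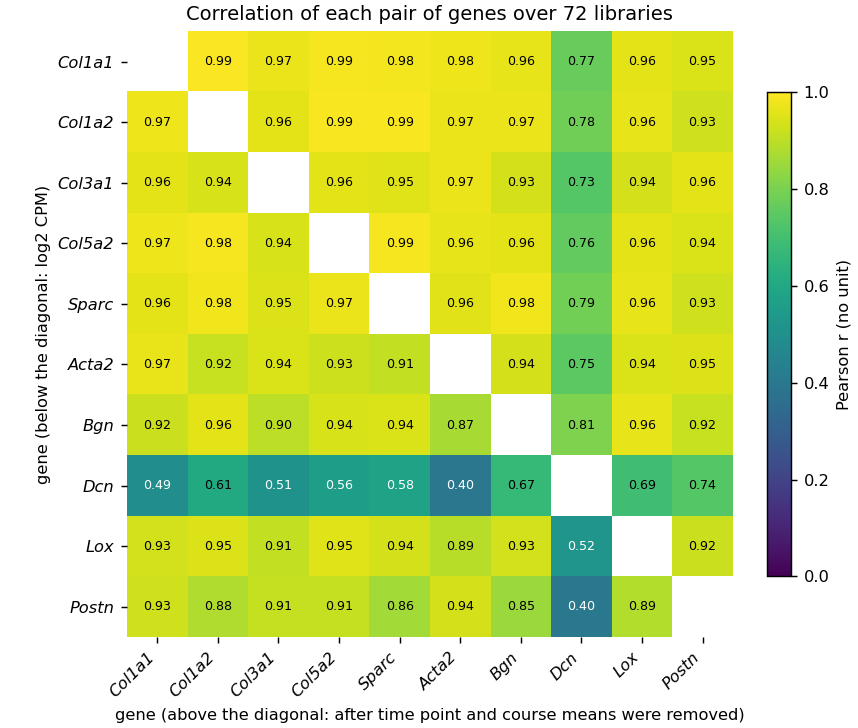
Pearson correlation of each pair of the 10 genes over 72 libraries (colour scale and printed values, no unit), of log2 CPM below the diagonal and after removal of time point and course means above it. The row of Dcn below the diagonal stands out, with 0.40 to 0.67.

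The first comparison asked whether the level of each gene differed between the replicate courses at matched times. It did for 3 of 10 genes by edgeR's quasi-likelihood test with Benjamini-Hochberg adjustment, which is near the share of all genes called (31.0%). Dcn was higher by 1.46 (log2) in course 2 and by 0.81 in course 3 than in course 1 (adjusted p = 0.000605), with medians of 1.19 CPM in course 2, 0.616 CPM in course 3 and 0.454 CPM in course 1. Sparc differed from course 1 by 0.91 in course 2 and by -0.01 in course 3 (adjusted p = 0.0157), with medians of 22.4, 8.55 and 9.04 CPM in that order. Col3a1 differed by 1.17 and 0.01 (adjusted p = 0.0249), with medians of 20.7, 6.84 and 6.71 CPM. Without course 2, 0 of 10 genes were called, where 3318 of all 17963 genes were. Without course 1 the call for Dcn was lost (adjusted p = 0.0885) and without course 3 that for Col3a1 (adjusted p = 0.0894), within ranges over all alternatives of 1.81e-05 to 0.143 and 0.00261 to 0.945. Without the 5 libraries that stand apart, 8 of 10 were called, all but Acta2 and Postn, where 7174 of all 19129 genes were called.

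The second comparison asked whether the genes drifted from 16 h to 62 h. Drift is the straight-line term of the fit, given as the log2 change over 46 h. Of the 10 genes 7 fell, where 33.4% of all genes were called as falling, and Dcn rose, where 37.3% were called as rising. Acta2 was at 0.146 to 20.0 CPM (median 7.02 CPM) in the 15 libraries from 54 to 62 h, against 7.19 to 70.3 CPM (median 14.3 CPM) in the 15 from 16 to 24 h. Its drift was -1.73 ± 0.47 (SE, adjusted p = 0.000868). Col3a1 was at 0.142 to 19.2 CPM (median 5.80 CPM) late, against 2.82 to 62.3 CPM (median 11.6 CPM) early, and its drift was -1.95 ± 0.62 (adjusted p = 0.00395). The late and early libraries overlapped for both genes.

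Sparc (-1.40 ± 0.46), Postn (-1.37 ± 0.51), Col1a1 (-1.35 ± 0.48), Lox (-0.98 ± 0.43) and Col5a2 (-0.97 ± 0.45) fell as well, with adjusted p from 0.00508 to 0.0478. Col1a2 (-0.78 ± 0.46, adjusted p = 0.125) and Bgn (-0.62 ± 0.45, adjusted p = 0.215) did not pass. Dcn was at 0.0708 to 3.42 CPM (median 1.24 CPM) from 54 to 62 h, against 0.0664 to 2.90 CPM (median 0.433 CPM) from 16 to 24 h. Its drift was 1.22 ± 0.47 (adjusted p = 0.0166), and its late median was above its early one in each course. The call was lost without course 1 (adjusted p = 0.0848) and without course 3 (adjusted p = 0.0960), within a range over the alternatives with more than 1 course of 0.00205 to 0.0960.

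Each course was also fitted alone. Course 1 fitted alone gave a drift of 0.12 ± 0.71 for Col1a1 and -0.62 ± 0.64 for Acta2, and Dcn was the only gene of the 10 called there. Course 2 alone gave -2.24 ± 0.90 for Col1a1 and -2.37 ± 0.93 for Acta2, with 4 genes called. Course 3 alone gave -1.57 ± 0.80 and -1.88 ± 0.80 for these genes, with 1 called. Of all 17903 genes, 9229, 8186 and 9952 were called in courses 1, 2 and 3 alone. A test of the difference in drift between courses called 0 of 10 genes (1 of 17903 genes in all, 0.00559%), with adjusted p of 0.707 to 0.930, none of the 10 below 0.05 before adjustment, and 0 of 10 also by DESeq2. With 2 courses in the fit, the count of genes called for drift fell to 2 without course 2 and to 3 without course 3. Over all genes, 11889 of 17963 and 11286 of 17984 were called in these fits. Col5a2 and Lox lost the call without the 5 libraries that stand apart (adjusted p = 0.0955 and 0.0914), within ranges of 0.0188 to 0.404 and 0.0342 to 0.176 over the alternatives with more than 1 course.

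No 24 h rhythm was called. The amplitude, which is the height of the fitted wave above its mean, was 0.13 (Bgn) to 0.28 (Dcn) on the log2 scale, and edgeR's adjusted p was 0.597 to 0.875. Of the 10 genes 0 had an unadjusted p below 0.05, and DESeq2 called 0, where 7.57% of all genes were called by edgeR. The smallest rhythm that could be called at the spread these genes had was not computed.

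The third comparison used the collagen level itself as a ruler. The index is the log2 of the summed CPM of Col1a1, Col1a2 and Col3a1, and ran from 2.29 to 327 CPM before the log. Each other gene was fitted on the index among libraries of the same time point, so that a slope of 1 means a change in proportion to the index. All 7 genes of the 10 outside the index had a positive slope past the threshold, where 10.6% of all genes did, 15.4% had a negative one and the median slope of all genes was -0.01. The slopes were 0.95 ± 0.06 for Postn, 0.94 ± 0.02 for Sparc, 0.92 ± 0.02 for Col5a2 and 0.91 ± 0.04 for Acta2 (SE). They were 0.87 ± 0.04 for Bgn, 0.80 ± 0.03 for Lox and 0.76 ± 0.10 for Dcn, and adjusted p ran from 1.24e-40 for Col5a2 to 8.64e-09 for Dcn. All 7 were called in each course fitted alone and without the 5 libraries that stand apart. A single course has 1 library at each time, so there a smooth curve in time (a spline) replaced the time points. The same holds for the slopes against 1 in single courses.

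Tested against a slope of 1, a test added after the data had been seen, 6 of the 7 genes moved less than in proportion, as did 98.7% of all genes, where 0.112% moved more than in proportion and 98.8% were called in either direction. Dcn (0.76) had the slope farthest below 1 and Lox (0.80) the smallest adjusted p (4.64e-08), and Postn was the 1 not called (adjusted p = 0.436). The index genes had slopes on their own sum of 0.99 (Col1a1), 0.95 (Col1a2) and 1.29 (Col3a1), given with no test since they make up the index. Proportion here is thus to the sum and not to each collagen gene, and counting error in the index was not modelled. In course 3 alone 0 of the 7 were called, with slopes of 1.03 for Bgn and 0.99 for Sparc there, and 3 were called without course 2. Without the 5 libraries that stand apart 4 were called, and Sparc (adjusted p = 0.465) and Dcn (adjusted p = 0.0527) were not, within ranges of 1.43e-05 to 0.465 and 0.000612 to 0.107 over the alternatives with more than 1 course. Acta2 was called in 6 of 10 settings, the main fit and these alternatives together (adjusted p up to 0.424).

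**Figure D4:**
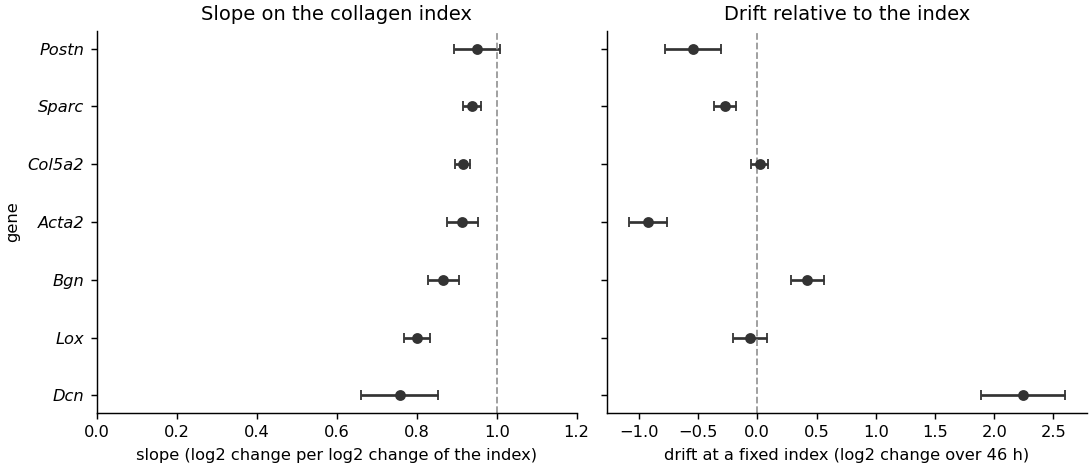
Left, slope of each of the 7 genes outside the index on the collagen index, in log2 change per log2 change (x axis), with a dashed line at 1. Right, drift at a fixed index in log2 change over 46 h (x axis), with a dashed line at 0. Points are estimates from 72 libraries and bars are SE. Dcn has the lowest slope (0.76) and the largest drift (2.24).

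The fourth comparison asked which genes changed with time relative to the collagen index. Over all genes 72.4% were called in this comparison in either direction, and the share among the genes outside the index was near that. At a fixed index Dcn rose by 2.24 ± 0.35 over 46 h (adjusted p = 6.21e-08) and Bgn by 0.42 ± 0.14 (adjusted p = 0.00612), where 38.5% of all genes rose. Acta2 fell by 0.92 ± 0.16 (adjusted p = 9.29e-07), Postn by 0.54 ± 0.23 (adjusted p = 0.0339) and Sparc by 0.27 ± 0.09 (adjusted p = 0.00718), where 33.9% of all genes fell. Col5a2 (0.02 ± 0.07) and Lox (-0.06 ± 0.14) did not pass (adjusted p = 0.805 and 0.699). The calls for Dcn and Acta2 held under every alternative run on more than 1 course. In single courses Dcn was called in all 3 (1.80 to 2.52), and Acta2 in courses 1 and 3 but not in course 2 (-0.48 ± 0.31). With Col1a1 alone as the index, Sparc (0.0183) and Postn (-0.15) lost the call, and Col5a2 (0.34) was called (adjusted p = 0.0012, range over the alternatives 0.0012 to 0.980). Sparc also lost it without course 1 (adjusted p = 0.0888, range over the alternatives 0.000816 to 0.919), and Bgn without course 2 (0.236, range 0.000182 to 0.236). Postn also lost it without course 1 (0.12), without course 3 (0.174) and with no filter (0.0517, range 0.0227 to 0.535).

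As a share of the summed level of the 10 genes, Dcn made up a median of 1.55% from 54 to 62 h, against 0.358% from 16 to 24 h. Acta2 made up 7.06% late, against 9.89% early. The shares of the index genes are given as a description with no test. Col1a2 made up 38.2% late, against 33.4% early, Col1a1 11.2% late, against 14.5% early, and Col3a1 5.47% late, against 8.25% early. The log2 ratio of Col3a1 to the index was lower late than early by 0.84, 1.05 and 0.74 in courses 1, 2 and 3. The log2 ratio of Dcn to the index was higher late than early by 1.00, 2.45 and 2.46 in these courses. For Bgn the same difference was -0.02, 1.06 and 0.20, so course 2 carried most of it. For Col5a2 the difference was 0.37, 0.28 and 0.12, and for Lox it was 0.09, 1.04 and 0.15. Neither of these 2 genes passed for drift at a fixed index, where the slope on the index was fitted as well.

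Around the index, the genes differed in how closely they kept to it. The SD of the log2 ratio to the index over 72 libraries was 0.23 for Col5a2 and 0.26 for Sparc, although the level of Col5a2 had an SD of 1.16. It was 0.41 for Bgn, 0.44 for Lox, 0.48 for Acta2, 0.59 for Postn and 1.17 for Dcn. The counting error that the depth allows was 0.08 for Col5a2, 0.07 for Sparc and 0.31 for Dcn on the same scale.

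**Figure D5:**
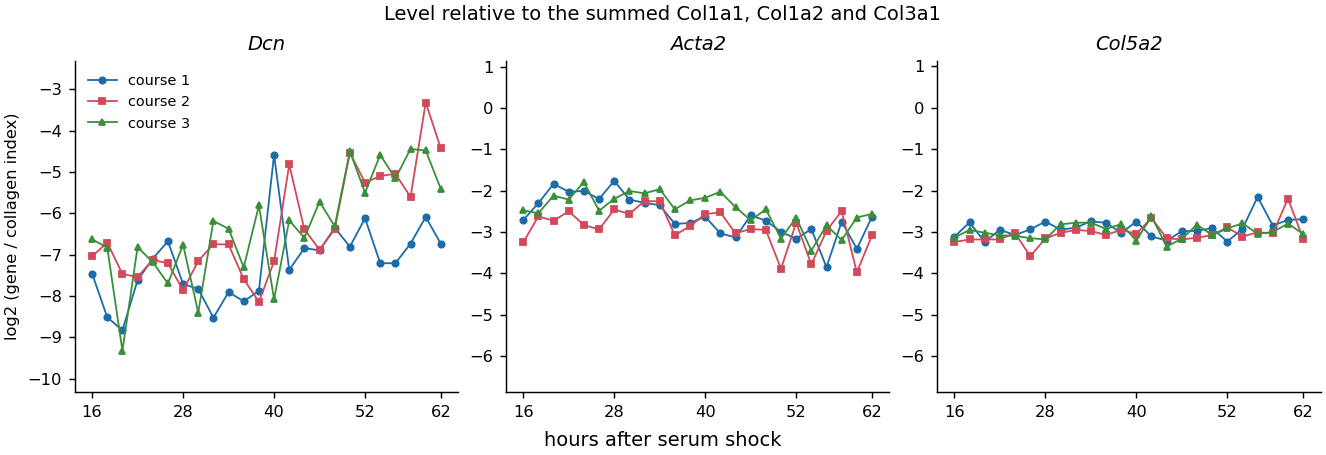
Log2 ratio of Dcn, Acta2 and Col5a2 to the summed CPM of Col1a1, Col1a2 and Col3a1 (y axes, each spanning the same number of log2 units) against hours after serum shock (x axis) in the 3 courses, 1 point per library. Dcn climbs by 1.00 to 2.46 between the early and late libraries, and Acta2 falls by 0.41 to 0.92. Col5a2 stays within a narrow band and climbs by 0.12 to 0.37.

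The genes whose residual pattern was most like the mean of the 10 were named by correlation after time point and course means, over 72 libraries, among 12810 genes with a mean of at least 1 CPM. The first 15 outside the 10 had r of 0.97 to 0.99, and 108 such genes were over 0.9. They included the collagen genes Col6a1, Col5a1, Col6a2 and Col8a1, the collagen chaperone Serpinh1 and the cross-linking enzyme Loxl2. The matricellular genes Tnc and Cyr61, the actin-binding genes Tpm2 and Fscn1, and Fstl1, Serpinf1, Ncam1, Cyp1b1 and Nedd4 completed them. Col6a1 ran from 0.146 to 30.5 CPM (median 3.48 CPM) and Serpinh1 from 1.65 to 51.7 CPM (median 11.1 CPM). Col6a1 and Col6a2, chains of collagen VI, had slopes above 1 on the index, of 1.24 ± 0.04 and 1.25 ± 0.05.

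Other matrix genes were read against the index as lists, by the count of tested genes with a positive slope past the threshold. Of 15 other collagen genes 13 had one, none had a negative slope, and the median slope was 0.90. Col15a1 and Col18a1 were the 2 that did not pass, with slopes of 0.10 and 0.03. Of 19 genes of matrix assembly 16 passed, among them Loxl2 (0.75), Loxl1 (0.93), Fn1 for fibronectin (0.77) and Fbn1 for fibrillin (0.86). Of 10 matricellular genes 8 passed, led by Cyr61 (0.95), Wisp2 (1.24), Tnc (0.77) and Thbs2 (1.29). The enzymes that modify and fold collagen split: 9 of 21 had a positive slope, 9 did not pass and 3 had a negative one, a share near the 15.4% of all genes with a negative slope. Serpinh1 (0.91), Bmp1 (0.85), Adamts2 (0.94) and Fkbp10 (0.88) led the first group, while P4hb, a subunit of prolyl hydroxylase, had a slope of -0.02 at 423 to 731 CPM.

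Acta2 was joined by other contractile genes, 10 of 14 of which had a positive slope. Tpm2 (0.93), Cald1 (0.68), Tagln (0.64) and Myl9 (0.95) led them, and Actg2 (0.90) and Cnn1 (0.73) passed as well. Flna (0.00), Actn1 (0.00) and Tpm1 (0.02), which cells of many types use, did not pass, nor did Myh11 (0.06), the myosin of mature smooth muscle. At a fixed index 9 of the 14 fell, with a median drift of -0.55, and Actg2 fell by 1.13 ± 0.22. Over all genes the median drift at a fixed index was 0.06.

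Markers of mesenchymal cells moved with the index. Of 15 tested receptors and transcription factors 13 had a positive slope, led by Prrx1 (0.88), Pdgfrb (0.76), Pdgfra (1.02) and Islr (1.17). Pdgfra, a receptor for platelet-derived growth factor, ran from 0.0193 to 8.65 CPM, and at a fixed index it rose by 2.44 ± 0.22. Twist1 had a slope of 0.98. Of 4 listed genes that failed the filter, Thy1 was at 0 in 43 of 72 libraries, Twist2 in 27, Tcf21 in 71 and Meox1 in 41. Lum, a proteoglycan gene of fibroblasts, was at 0 in 56. Of 12 marrow stroma genes 10 had a positive slope, led by Cxcl12 (1.05), Foxc1 (0.97), Grem1 (0.63) and Vcam1 (0.38), and Kitl (-0.04) was not called. Of 17 TGF-beta pathway genes 8 had a positive slope and 2 a negative one, among the positive ones Ltbp2 (0.77), Ltbp1 (0.78) and Tgfbr3 (0.51). Of 12 matrix proteases and inhibitors 8 had a positive slope, led by Timp3 (0.84), Timp1 (0.68), Mmp23 (0.91) and Mmp2 (0.39).

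Markers of other cells were sparse or moved differently. The 6 adipocyte genes summed to at most 0.349 CPM and 0 were tested. Of 10 osteoblast genes 5 were tested and 2, Alpl (1.17) and Sp7 (0.86), had a positive slope, with Bglap at 0 in 63 of 72 libraries. Of 10 endothelial genes 4 were tested: Vwf (-0.28) and Kdr (-0.28) had a negative slope, Pecam1 (0.20) a positive one, and Cldn5 was at 0 in 65 libraries. Of 10 neutrophil genes 3 were tested and summed with the rest to 0.181 to 3.18 CPM, and S100a8 (0.34) and Prtn3 (0.33) had positive slopes. Of 8 lymphocyte genes 4 were tested and of 6 erythroid genes 1, and none of these passed. Of 13 macrophage genes 7 had a positive and 2 a negative slope, all between -0.08 and 0.24, with C1qa (0.24) the steepest.

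Technical measures and marker sums were set against the log2 summed level of the 10 genes. Over 72 libraries Pearson's r was -0.28 with the counts assigned to genes, 0.49 with the TMM factor, -0.16 with the share of reads on no annotated feature, -0.30 with the share of low-quality alignments and 0.40 with the summed macrophage markers. Within courses 1, 2 and 3 the r with the TMM factor was 0.00, 0.76 and 0.60, with the share of low-quality alignments 0.38, -0.63 and -0.41, and with the macrophage markers 0.67, 0.43 and -0.14. After time point and course means were removed, r was 0.60 with the TMM factor, -0.46 with the share of low-quality alignments, -0.37 with the share of ambiguous alignments, 0.41 with the number of genes counted, 0.61 with the macrophage markers, 0.74 with the neutrophil markers and -0.73 with the endothelial markers, whose sum ran from 42.5 to 339 CPM. The endothelial sum was mostly Vwf, which ran from 28.0 to 298 CPM, while Pecam1 and Cdh5 had means of 0.592 and 0.417 CPM. The neutrophil marker Ly6g was at 0 in 58 of 72 libraries. These are descriptions with no test, and the part of these measures in the spread of the 10 genes was not tested.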

How the data were processed

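Counts of RNA-seq read pairs per gene were analysed for 72 libraries of macrophages (total RNA, ribosomal RNA depleted, paired-end Illumina HiSeq, per the labels' protocols). The deposited values are whole-number counts per gene with no normalization, as the values show. Per the submitters' processing notes, DRAGEN and HTSeq were used with GRCm38 (mm10). Their versions, the release of the annotation and whether strand was used are not given in these sources. The 5 closing lines that name no gene entered neither library sizes nor tests. Read pairs on no feature made up 29.8% to 36.6% of all tallied, and those not aligned uniquely 19.5% to 33.0%. No 2 libraries held identical values.

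Genes were kept by filterByExpr with the time point as group (17903 of 49568, with 13115 never counted), normalized by TMM and tested by quasi-likelihood in edgeR 4.0.16 under R 4.3.3. Benjamini-Hochberg adjustment ran over the 17903 genes, and calls are at an adjusted p below 0.05. CPM use the TMM-scaled library sizes, and RPKM divide them by the union of exons in GENCODE M21. The course test held 24 time points as levels, drift and rhythm were fitted together as a straight line and a 24 h cosine and sine, and the index tests added the index as a covariate. The index comes from the same libraries as the genes tested on it and shares their scaling, and counting error in it was not modelled. Samples were treated as independent, so correlation between successive times of a course was not modelled. A library stood apart when its root mean square log2 distance from the other 2 courses at the same time, over 12690 genes outside every list with a mean of at least 1 CPM, was over 0.476, which is 3 median absolute deviations above the median. The models were tested on simulated data. No result of that test is given here, so it does not show how the models perform for genes with as large a spread as those described. Alternatives were another scaling (RLE), no filter on low counts, DESeq2 1.42.0, each course left out, a course block, a spline for drift and Col1a1 alone as the index. Leaving out the libraries that stand apart, the test of slope against 1, the test of drift between courses and each course alone for drift, rhythm and drift at a fixed index were added after the data had been seen.

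The 10 genes and the gene lists were chosen with earlier results of these data known. Apart from the 10, genes are named by rule: the 15 most like the mean of the 10, up to 4 genes of each list with the smallest adjusted p per test, with predicted genes, Riken clones and pseudogenes passed over. One gene that the rule names is not reported here. Genes named for not passing, for being at 0 or beyond these 4 were chosen after their values were seen. The correlations were planned with permutation p-values and are given without them.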

Additional observations from a re-analysis of the deposited data

How the results depend on the processing

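Of the members' results under the alternatives, all 84 for the slope on the index kept their direction and their side of the threshold, and all 120 for rhythm and all 70 for the difference in drift between courses stayed short of the threshold. For the course difference, the count of 3 of 10 genes became 5 by DESeq2 and 8 without the libraries that stand apart, and 0 to 3 with each course left out. For drift, the count of 8 became 1 in course 1 alone, 4 in course 2 alone and 1 in course 3 alone, and 2 to 7 with each course left out. In course 1 alone the drift of Col1a1 (0.12) and Col5a2 (0.41), both called in all courses together, changed sign, as did that of Col1a2 (0.62) and Bgn (0.40), which were not called. For the slope against 1, the count of 6 of 7 became 0 in course 3 alone and 3 to 4 with each course left out, and among the called genes the difference from 1 changed sign for Acta2 in course 1 alone (0.0142) and course 2 alone (0.0183) and for Bgn in course 3 alone (0.0328). For drift at a fixed index, the count of 5 of 7 became 2 in course 1 alone, 3 in course 2 alone and 3 in course 3 alone, and 3 to 4 with each course left out. There, among the called genes, Sparc changed sign with Col1a1 alone as the index (0.0183) and Postn in course 2 alone (0.0221). A single course holds 24 libraries in place of 72, and the cause of the other changes was not tested. Over all genes, rhythm calls numbered 1356, against 504 with a spline for drift, 233 to 321 with each course left out and 11 to 29 in single courses. Calls for a slope numbered 4650 (1898 positive, 2752 negative), against 2276 in course 2 alone, 819 in course 3 alone, 2762 without course 1 and 964 without course 2 (753 positive, 211 negative). Calls for drift numbered 12656, against 9229, 8186 and 9952 in courses 1, 2 and 3 alone. Calls for a course difference numbered 5548, against 7174 without the libraries that stand apart, 3318 without course 2 and 2064 without course 3. Calls for a difference in drift between courses numbered 1, against 22 by DESeq2, 84 with no filter, 2 without the libraries that stand apart and 0 with any course left out.

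With the course number as a replicate block, drift was called for 7 of 10 genes, and Col5a2 (-0.87, adjusted p = 0.0658) and not another gene lost the call. The slope against 1 was called for 5 of 7 under the block, with Acta2 lost (adjusted p = 0.424), and the median pair correlation was 0.93, as without it. Libraries of 1 course shared only a number by the labels. Their deviations from the time point means had a median correlation of 0.21, 0.26 and 0.29 in courses 1, 2 and 3. In these courses 193, 183 and 216 of 276 pairs of times were over 0.1, and 65 of 72 libraries correlated best with their own course. The main fits for drift, rhythm and the index held no course term.

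At these depths Dcn and Postn in the lowest libraries rest on 2 counts, so their ratios there carry a large counting error. Whether amplitudes of the size fitted for rhythm are detectable in genes with this spread was not tested.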
